A study of Mus musculus with 9 samples.

Results

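The secreted Wnt antagonists are extracellular proteins that keep Wnt ligands from signaling, and 10 of their genes were followed in mouse skin: *Wif1*, *Frzb*, *Sfrp1*, *Sfrp2*, *Sfrp4*, *Dkk1*, *Dkk2*, *Dkk3*, *Sostdc1* and *Notum*. They were chosen by name as members of this class, with earlier results of these data known. They make up 10 of the 17943 genes in the table. Of these, 9 had at least 10 estimated counts summed over the mice and were tested together with the rest of the 16426 genes above that limit, while *Dkk1* fell under it.

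Whole skin of 4 *Supt6*-KO mice and 5 controls was profiled by bulk RNA-Seq. *Supt6* encodes SPT6, a histone chaperone and transcription elongation factor, and the study asked what its loss does to the skin. The *Supt6*-KO mice were K14-CreERT; *Supt6* fl/fl animals given tamoxifen, and their skin was taken on day 10 after the last injection. The controls were *Supt6* fl/fl mice without the Cre that received corn oil, according to the study, whereas the labels call them wild-type. The groups therefore differed in the Cre transgene and in tamoxifen as well as in *Supt6*. According to the study, the *Supt6*-KO skin was also taken from lesions. These differences cannot be told apart here. The K14 promoter drives Cre in basal keratinocytes and the outer root sheath of the hair follicle, so the fibroblasts, vessels, muscle and immune cells of whole skin keep their *Supt6* alleles. The labels give the tissue as ear and the study as dorsal skin, and cartilage transcripts were present in all mice, with *Acan*, the main cartilage proteoglycan, at a mean of 154 CPM and *Col2a1*, the cartilage collagen, at 72.9 CPM in the controls. CPM are counts scaled to a common library size after adjustment of each library by the TMM (trimmed mean of M values) factors of edgeR. The estimated counts summed to 29627341 to 30491197 per control and to 30597189 to 30967107 per *Supt6*-KO mouse.

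Wnt ligands carry a lipid and bind a Frizzled receptor together with the co-receptor LRP5 or LRP6, which stabilizes β-catenin and switches on target genes with TCF/LEF factors. The antagonists act outside the cell and by different routes. The SFRP proteins, FRZB and WIF1 bind the Wnt ligands themselves, DKK1, DKK2 and SOSTDC1 occupy the LRP co-receptors, and NOTUM removes the lipid. In skin these proteins are known from the hair follicle and the dermis, where Wnt signals start and pattern hair growth.

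*Supt6* itself had 74.5, 56.6, 63.6, 91.1 and 96.7 CPM in the 5 controls and 28.6, 24.1, 21.9 and 28.4 CPM in the *Supt6*-KO mice. All *Supt6*-KO mice lay below all controls, at 33.7% of the control mean. The log2 fold change was -1.57 (SE 0.18), where SE is its standard error, and p adjusted over all genes tested was 1.3e-05 by the quasi-likelihood test of edgeR. Over the alternatives it ran from -2.26 with library totals to -0.78, under 2-fold, with a trend in transcript length removed from each library.

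Of the 9 tested antagonists, 6 were lower in *Supt6*-KO skin by at least 2-fold with an adjusted p under 0.05, namely *Frzb*, *Wif1*, *Sfrp4*, *Dkk2*, *Dkk3* and *Notum*, and 1 was higher, *Sostdc1*. *Sfrp1* and *Sfrp2* passed the p threshold with a fall of less than 2-fold. By the same rule 24.9% of all genes tested were lower and 20.9% were higher. Among the tested antagonists these shares were 66.7% and 11.1%. At any fold, 8 of the 9 were lower and 1 was higher, against 36.8% and 34.1% of all genes tested. The median log2 fold change was -1.48 over the 9 antagonists and -0.07 over all genes tested. In 7 of the 9 every *Supt6*-KO mouse lay below every control, which held for 31.8% of all genes, and in *Sostdc1* every *Supt6*-KO mouse lay above, which held for 28.9%. In whole skin a fall in the number of cells that make a transcript and a fall in the transcript per cell cannot be told apart.

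**Figure D1:**
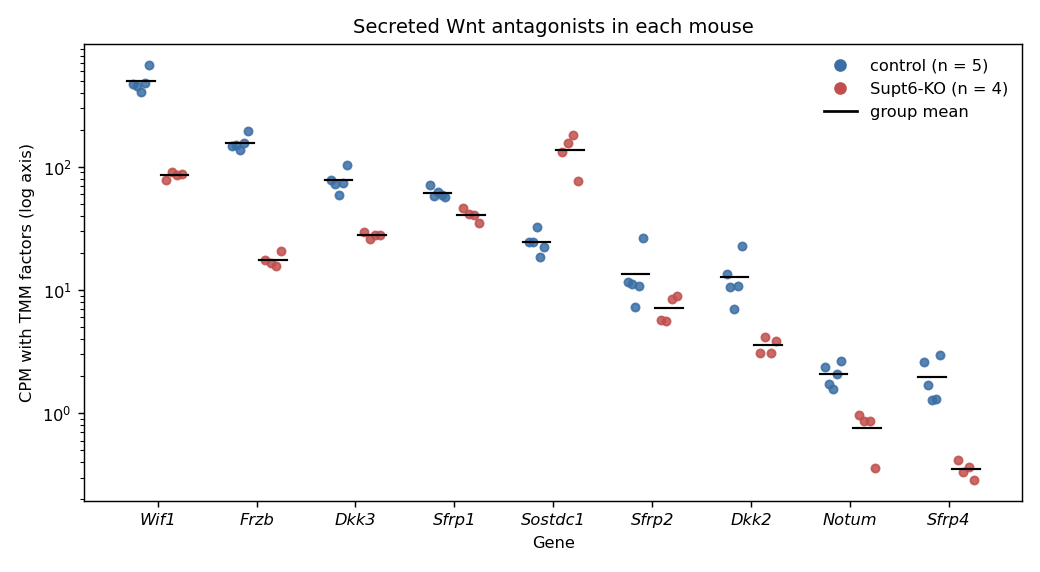
Level of the 9 tested antagonists in each mouse, in CPM with TMM factors on a log axis. Points are mice (5 controls, 4 Supt6-KO) and bars are group means; of these 9, only Sostdc1 is higher in Supt6-KO skin (136 against 24.5 CPM), and only Sfrp2 has groups that overlap.

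*Wif1*, Wnt inhibitory factor 1, binds Wnt ligands through its WIF domain. It lies on the forward strand of chromosome 10, from 121033960 to 121100650 in GRCm38, with 10 exons. The controls had 470, 451, 402, 479 and 674 CPM and the *Supt6*-KO mice 78.7, 90.4, 85.6 and 87.7 CPM. The lowest control was thus more than 4 times the highest *Supt6*-KO mouse, and the *Supt6*-KO mice lay close together while control 5 stood above the other controls. The means were 495 ± 104 CPM (SD, n = 5) and 85.6 ± 5.03 CPM (SD, n = 4), a 5.79-fold fall with a log2 fold change of -2.53 (SE 0.17, adjusted p = 5.5e-07 by edgeR). Per transcript length it was the most abundant of the 10 genes in the controls, at 418 ± 144 TPM (SD, n = 5) in the deposited TPM values, which cover the 5 controls and 1 *Supt6*-KO mouse (36.38 TPM).

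*Frzb*, also called SFRP3, is a soluble relative of the Frizzled receptors first known from cartilage. The gene is on the reverse strand of chromosome 2, from 80411970 to 80447625, with 6 exons. It had 147, 149, 136, 157 and 194 CPM in the controls and 17.4, 16.5, 15.7 and 20.8 CPM in the *Supt6*-KO mice. The groups were far apart, and this was the largest fold change of the 9 in either direction under TMM scaling: 157 ± 22 CPM (SD, n = 5) fell to 17.6 ± 2.26 CPM (SD, n = 4), or 11.2% of the control mean, with a log2 fold change of -3.15 (SE 0.15, adjusted p = 8.4e-08 by edgeR).

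The 3 other SFRP genes moved by unequal amounts. *Sfrp4*, on chromosome 13 (19623104 to 19632994, forward), was scarce, with 2.62, 1.70, 1.27, 1.3 and 2.98 CPM in the controls, or 46 to 117 counts. The *Supt6*-KO mice had 0.418, 0.336, 0.366 and 0.287 CPM, which rest on 7 to 10 counts each. The groups did not overlap, and the log2 fold change was -2.48 (SE 0.35, adjusted p = 6.6e-05 by edgeR), a 5.58-fold fall. *Sfrp1*, on chromosome 8 (23411502 to 23449632, forward), is the family member with the highest TPM of the 3, at 24.1 ± 3.34 TPM in the controls. Its CPM were 71.2, 57.6, 62.5, 59.4 and 57.4 in the controls and 46.2, 41.8, 40.6 and 34.7 in the *Supt6*-KO mice. All *Supt6*-KO mice were lower here too, but by 1.51-fold (log2 fold change -0.59, SE 0.12, adjusted p = 7.7e-04 by edgeR). *Sfrp1* missed the p threshold when a trend with transcript length was removed from each library (log2 fold change -0.14, adjusted p = 0.31 by edgeR). *Sfrp2*, a Wnt binder known from the dermis and on chromosome 3 (83766321 to 83774316, forward), had 11.7, 11.1, 7.23, 10.7 and 26.4 CPM in the controls against 5.68, 5.57, 8.46 and 8.94 CPM. Its groups overlapped, since control 3 lay below 2 of the *Supt6*-KO mice, and control 5 had more than 2 times the level of any other control. The log2 fold change of -0.91 (SE 0.34, adjusted p = 0.032 by edgeR) became -0.51 without control 5 (adjusted p = 0.061), -0.81 without *Supt6*-KO 1 (adjusted p = 0.086) and -0.82 without *Supt6*-KO 2 (adjusted p = 0.08). Thus 3 of the 9 mice each decide whether *Sfrp2* passes the p threshold. It was also missed with the replicate number as a block (log2 fold change -0.52, adjusted p = 0.089 by edgeR). No *Supt6*-KO mouse shares the number of control 5, so control 5 adds nothing to the group difference in that fit. The block is therefore not separate from the fit without control 5.

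DKK1 and DKK2 bind LRP5 and LRP6 and, with the Kremen receptors, can take them off the cell surface. *Dkk2*, on chromosome 3 (132085292 to 132180304, forward), had 13.4, 10.5, 7.00, 10.7 and 22.6 CPM in the controls and 3.09, 4.13, 3.11 and 3.88 CPM in the *Supt6*-KO mice. Every *Supt6*-KO mouse was below the lowest control, and the 3.61-fold fall had a log2 fold change of -1.85 (SE 0.31, adjusted p = 2.3e-04 by edgeR). *Dkk3*, a divergent member that does not act on LRP6 as the others do, lies on chromosome 7 (112116017 to 112159057, reverse). Its values were 78.9, 72.0, 59.3, 74.0 and 104 CPM in the controls and 29.8, 25.9, 27.8 and 27.8 CPM in the *Supt6*-KO mice. The groups were again separate and the *Supt6*-KO mice nearly equal, with a 2.79-fold fall (log2 fold change -1.48, SE 0.16, adjusted p = 7.9e-06 by edgeR). *Dkk1*, the best known inhibitor of the family and on chromosome 19 (30545863 to 30549665, reverse), was all but absent, as the controls had 1, 0, 0, 1 and 0 estimated counts and the *Supt6*-KO mice 0, 0, 2 and 0. It was at or under the floor of 3 counts in every library, and no fold is given.

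*Notum* encodes an extracellular carboxylesterase that strips the lipid from Wnt ligands while held at the cell surface by glypicans. The gene is on the reverse strand of chromosome 11, from 120653788 to 120660606, with 11 exons. It was scarce, at 2.38, 1.72, 1.58, 2.08 and 2.67 CPM in the controls and 0.961, 0.864, 0.869 and 0.359 CPM in the *Supt6*-KO mice. The groups did not overlap, and *Supt6*-KO 4, with 10 counts, was the lowest. The fall was 2.75-fold (log2 fold change -1.46, SE 0.30, adjusted p = 0.0011 by edgeR).

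*Sostdc1*, also known as Wise or ectodin, binds LRP co-receptors and also BMP ligands. It lies on chromosome 12 (36314139 to 36318452, forward) and has 2 exons. The controls had 24.6, 24.7, 32.3, 18.7 and 22.3 CPM and the *Supt6*-KO mice 133, 156, 180 and 76.2 CPM. It was the only antagonist that rose, and the lowest *Supt6*-KO mouse, number 4, was still at more than 2 times the highest control. The means of 24.5 ± 4.98 CPM (SD, n = 5) and 136 ± 44.6 CPM (SD, n = 4) differed 5.55-fold, with a log2 fold change of 2.47 (SE 0.24, adjusted p = 4.2e-06 by edgeR). The *Supt6*-KO mice varied more among themselves here than for *Wif1*, *Frzb* or *Dkk3*. In an exact two-sided permutation test over the 9 mice, p was 0.0159 for *Sostdc1* and each of the 7 antagonists with separate groups, the smallest value that 5 against 4 can give, and 0.0476 for *Sfrp2*.

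**Figure D2:**
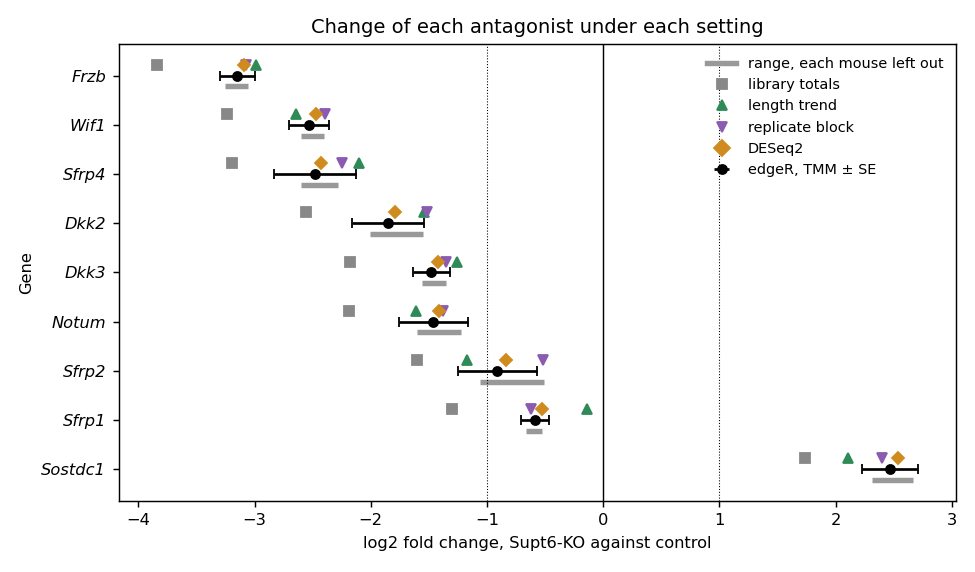
Log2 fold change of Supt6-KO against control for the 9 tested antagonists. Black points are the edgeR values with their standard error, gray bars the range when each of the 9 mice is left out in turn, and symbols 4 other settings; dotted lines mark a 2-fold change. Frzb is lowest at -3.15 and Sostdc1 is the one gene to the right of 0, at 2.47, and no setting shown moves a gene across 0.

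The direction of each of the 9 held under every alternative that tested it, but the sizes moved. Over 17 alternatives the log2 fold change of *Frzb* ranged from -3.84 to -2.99, that of *Wif1* from -3.24 to -2.39 and that of *Sostdc1* from 1.74 to 2.67. *Dkk2* ranged from -2.56 to -1.52, *Dkk3* from -2.18 to -1.26 and *Notum* from -2.19 to -1.22. *Sfrp4*, tested in 16 of them, ranged from -3.19 to -2.10. *Sfrp1*, from -1.30 to -0.14, and *Sfrp2*, from -1.60 to -0.51, were the only antagonists with an alternative that missed the p threshold. The lowest value of each came from scaling to library totals, which also moved the median of all genes from -0.07 to -0.76. The TMM factors were 1.198 to 1.315 in the controls and 0.674 to 0.91 in the *Supt6*-KO mice. With library totals, 1470 genes were higher and 6802 lower (17.8% of calls higher), against 3427 and 4088 (45.6% higher) with TMM. Relative to the median of all genes, *Sostdc1* stood apart upward and the other antagonists downward under both scalings.

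The control mice differed among themselves in a shared way. Control 5 had the highest CPM of the controls for 7 of the 9 antagonists (all but *Sfrp1* and *Sostdc1*), and control 3 had the lowest for 7, with the same 2 exceptions. *Sostdc1* was highest in control 3, at 32.3 CPM. The summed CPM of 10 dermal fibroblast markers also ran from 3207 in control 3 to 11087 in control 5. Cartilage (901.9 to 1444.0 CPM), endothelial (51.1 to 113.0 CPM) and leukocyte markers (102.9 to 166.3 CPM) had the same lowest and highest control. The other marker lists did not. The part of the cell content in these differences was not tested.

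Levels of different genes can be compared per transcript length. In the deposited TPM of the controls, *Wif1* (418 ± 144 TPM) was followed by *Frzb* (97.0 ± 26.2), *Dkk3* (41.4 ± 14.1), *Sostdc1* (27.0 ± 4.31), *Sfrp1* (24.1 ± 3.34), *Sfrp2* (13.3 ± 9.30), *Dkk2* (6.27 ± 3.74), *Sfrp4* (2.24 ± 1.13) and *Notum* (1.99 ± 0.667), all as TPM with SD and n = 5. The neighbors *Sostdc1* and *Sfrp1*, *Sfrp2* and *Dkk2*, and *Sfrp4* and *Notum* differed by less than the larger of their SDs. In *Supt6*-KO 4, the single *Supt6*-KO mouse with TPM, *Sostdc1* came first at 42.53 TPM, ahead of *Wif1* at 36.38 TPM.

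The same change of rank was seen in all *Supt6*-KO mice when CPM were divided by transcript length and summed over the 10 genes. The sum was 328.3 ± 61.0 CPM per kb in the controls and 142.0 ± 24.6 CPM per kb in the *Supt6*-KO mice (SD, n = 5 and 4), or 43.3% of the control mean. *Wif1* made up 64.7, 65.1, 63.7, 66.5 and 67.8% of this sum in the controls and 24.9, 25.6, 22.4 and 34.9% in the *Supt6*-KO mice. *Sostdc1* made up 4.36, 4.6, 6.58, 3.34 and 2.88% in the controls and 54.0, 56.9, 60.8 and 39.1% in the *Supt6*-KO mice. A binder of Wnt ligands was thus the leading transcript in every control, and a binder of LRP co-receptors in every *Supt6*-KO mouse. These shares do not depend on how the libraries are scaled, whereas the sums do. The share of *Frzb* fell from 15.2 ± 0.709% to 4.11 ± 1.35%, whereas *Dkk3* made up 7.02 and 5.99% and *Sfrp1* 4.41 and 6.68% on average. Without *Wif1* the sum was 112.4 ± 15.7 and 104.7 ± 24.6 CPM per kb, and without *Wif1* and *Frzb* it was 62.6 ± 9.29 and 99.1 ± 25.3 CPM per kb. The mean of this last sum was higher through *Sostdc1*, which alone went from 13.8 ± 2.79 to 76.5 ± 25 CPM per kb. By mouse, the sum without *Wif1* and *Frzb* was 98.2, 109.1, 124.5 and 64.8 CPM per kb in the *Supt6*-KO mice. The controls had 55.6 to 77.9 CPM per kb, so *Supt6*-KO 4 lay within their range. The 7 genes left without *Wif1*, *Frzb* and *Sostdc1* summed to 48.9 ± 10.3 and 22.6 ± 0.968 CPM per kb, or 46.3% of the control mean. With library totals in place of TMM, the sum of the 10 genes was 410.0 ± 92.2 and 107.2 ± 7.74 CPM per kb. Without *Wif1* it was 140.2 ± 24.9 and 78.6 ± 10.9 CPM per kb with these totals. Without *Wif1* and *Frzb* it was 78.1 ± 14.5 and 74.2 ± 11.9 CPM per kb. The mean of this sum was thus higher in the *Supt6*-KO mice under TMM and not under library totals. The 7 genes left without *Wif1*, *Frzb* and *Sostdc1* summed to 61.0 ± 15.2 and 17.3 ± 2.37 CPM per kb with library totals. The shares and sums are given as descriptions, without a test.

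**Figure D3:**
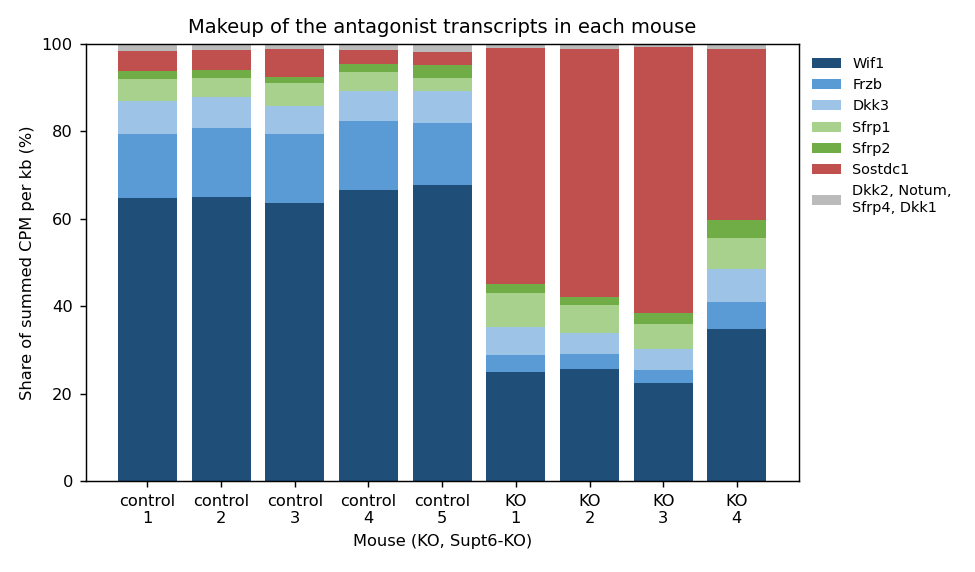
Share of each antagonist in the summed CPM per kb of the 10 genes, in percent, for each mouse. Wif1 takes 63.7 to 67.8% in the controls and 22.4 to 34.9% in the Supt6-KO mice, and Sostdc1 takes 2.88 to 6.58% and 39.1 to 60.8%.

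Promoter windows from RefSeq (GRCm38.p6), which run from 250 bases before to 50 after a start, were at hand for 5 of the 10 genes: *Wif1*, *Frzb*, *Sfrp2*, *Dkk2* and *Dkk1*. They were searched for the TCF/LEF core CTTTGA, the letters read by the β-catenin partners. On the opposite strand this core reads TCAAAG. The TATA box TATAAA was searched as well. Its opposite strand reads TTTATA. Of 32851 windows of this length, 16.0% hold the core and 13.6% the box, and the motifs do not overlap in the 5 windows. Of the 4 antagonists with a window that were lower, *Frzb* had 1 TCF/LEF core and *Wif1*, *Sfrp2* and *Dkk2* had none in this window. The RefSeq start of a window is not always the GENCODE start used for the gene coordinates above. The *Frzb* core begins 95 bases before the RefSeq start (80447396) but 134 bases after the GENCODE start (80447625), within the annotated gene. The *Dkk1* window held 2 cores, which begin 117 and 174 bases before its RefSeq start (30549496), and of these the first lies 52 bases after and the second begins 5 bases before the GENCODE start (30549665). TATA box letters were found in the windows of *Wif1*, *Dkk2* and *Dkk1*. In *Dkk1* they begin 54 bases before the RefSeq start, which is 115 bases after the GENCODE start. All 5 windows lay above the median GC content of 52.7%, with 57.7% in *Dkk2*, 60.7% in *Dkk1*, 63.0% in *Wif1*, 64.7% in *Frzb* and 66.0% in *Sfrp2*. The forward-strand bases before every annotated start are shown for *Wif1*, the most abundant antagonist of the controls (chr10:121033754-121033959), and for *Dkk2* (chr3:132085042-132085265), which fell with it but has TATA box letters 32 bases before its start in the RefSeq window and in GENCODE. The RefSeq gene record of *Dkk2* begins 26 bases further upstream, directly after these letters, so the printed sequence ends there. Capitals mark the TATA box letters, which in *Wif1* are on the opposite strand and begin 232 bases before the RefSeq start (121034004) and 188 bases before the GENCODE start.
Wif1: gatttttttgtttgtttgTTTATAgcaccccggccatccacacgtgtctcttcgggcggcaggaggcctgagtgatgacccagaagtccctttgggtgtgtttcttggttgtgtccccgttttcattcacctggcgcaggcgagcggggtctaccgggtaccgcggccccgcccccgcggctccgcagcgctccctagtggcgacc
Dkk2: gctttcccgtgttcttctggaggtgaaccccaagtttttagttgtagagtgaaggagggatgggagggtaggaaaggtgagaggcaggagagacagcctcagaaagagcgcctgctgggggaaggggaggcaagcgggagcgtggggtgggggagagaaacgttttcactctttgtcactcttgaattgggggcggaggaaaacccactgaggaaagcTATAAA

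Of 8 further genes for extracellular inhibitors and their relatives, 6 were tested and 3 were lower by at least 2-fold, against 24.9% of all genes, and none was higher, against 20.9%. *Sfrp5*, the last SFRP gene, fell from 3.92 ± 0.494 to 0.803 ± 0.285 CPM (log2 fold change -2.28, adjusted p = 1e-05 by edgeR). *Apcdd1*, a membrane-bound inhibitor of the hair follicle that is itself a Wnt target, fell from 107 ± 10.9 to 40.7 ± 9.93 CPM (log2 fold change -1.39), and *Sost*, the closest relative of *Sostdc1*, was lower as well but near the detection limit, at 0.160 and 0.0339 CPM. *Dkkl1* had 131 ± 17.2 and 141 ± 65.0 CPM, with no detectable difference (log2 fold change 0.11, adjusted p = 0.76 by edgeR), and *Igfbp4* and *Draxin* did not pass either. With library totals *Igfbp4* passed the p threshold (log2 fold change -0.75, adjusted p = 0.0058 by edgeR). *Dkk4* and *Cer1* were too low to test.

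The receptors that the antagonists block or mimic were lower in 11 of 18 cases (61.1%, against 24.9% of all genes) and higher by 2-fold in none (against 20.9%), with a median log2 fold change of -1.47. *Lrp5*, a co-receptor bound by DKK1, DKK2 and SOSTDC1, had 104, 75.8, 83.3, 118 and 130 CPM in the controls and 21.6, 10.3, 12.3 and 21.3 CPM in the *Supt6*-KO mice. Its partner *Lrp6* had 66.9, 48.3, 57.8, 72.9 and 96.6 CPM against 16.4, 16.4, 14.9 and 21.4 CPM. In both genes the groups were widely separate, with log2 fold changes of -2.64 (SE 0.26) and -1.99 (SE 0.20) and adjusted p = 5.6e-06 and 6.4e-06 by edgeR. *Lrp4*, which SOSTDC1 also binds, fell from 91.5 ± 21.6 to 28.7 ± 14.1 CPM (log2 fold change -1.67). *Kremen1*, which works with DKK1 and DKK2, fell from 127 ± 9.92 to 48.2 ± 7.55 CPM (log2 fold change -1.40), while *Kremen2* had 5.28 ± 0.947 and 7.02 ± 2.43 CPM and did not pass (adjusted p = 0.18 by edgeR). Among the Frizzled genes the largest falls were those of *Fzd4* (log2 fold change -2.64, from 12.3 to 1.97 CPM) and *Fzd8* (-2.08, from 8.09 to 1.91 CPM), and of the related Wnt receptor *Ror1* (-2.04, from 10.7 to 2.62 CPM). *Fzd6* had a log2 fold change of 0.44 with TMM and of -0.24 with library totals (adjusted p = 0.0041 and 0.17 by edgeR). Its sign thus depends on the scaling, which also moved the median of all genes from -0.07 to -0.76.

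Glypicans are surface proteoglycans that carry Wnt ligands and hold NOTUM. Of 5 tested, 4 were lower by at least 2-fold, where 24.9% of all genes were, and *Gpc2* by less. *Gpc6* had 22, 17.4, 18.6, 25.2 and 42.1 CPM in the controls and 2.59, 2.97, 2.97 and 2.84 CPM in the *Supt6*-KO mice. This fall (log2 fold change -3.14, SE 0.27) was about the size of that of *Frzb*. *Gpc3* (-2.05), *Gpc4* (-1.47) and *Gpc1* (-1.04) followed, as log2 fold changes.

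Wnt genes encode the ligands that several antagonists bind. Of 18 tested genes for ligands and their processing, 6 were lower by at least 2-fold (33.3%, against 24.9% of all genes) and 2 were higher (11.1%, against 20.9%), and their median log2 fold change was -0.44. *Wnt7b*, an epidermal ligand, fell from 112 ± 6.44 to 34.4 ± 12.9 CPM (log2 fold change -1.70), *Wnt3* from 20.0 ± 2.22 to 5.09 ± 3.30 CPM (-1.97), *Wnt10b* from 5.50 ± 1.3 to 1.21 ± 0.499 CPM (-2.20) and *Wnt11* from 4.91 ± 0.928 to 1.75 ± 0.405 CPM (-1.48). *Wnt16* and *Wnt7a* were called higher, but both had overlapping groups and neither was called with library totals, and *Wnt7a* was at 0.219 and 0.620 CPM. *Wnt4* had 81.5 ± 9.39 and 137 ± 12.8 CPM (log2 fold change 0.75, SE 0.12), which became 0.07 with library totals (adjusted p = 0.7 by edgeR). *Wls*, the carrier that brings Wnt ligands to the surface, was at 202 ± 16.8 and 162 ± 13.3 CPM (log2 fold change -0.32).

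Wnt agonists are the R-spondins, which stabilize Wnt receptors, their LGR receptors and Norrin. Of 8 genes 5 were lower (62.5%, against 24.9% of all genes) and none was higher, with *Lgr6* (log2 fold change -2.17), *Lgr5* (-1.54) and *Rspo3* (-1.07) above 1 CPM in the controls and *Rspo2* and *Rspo4* below it. Target genes of β-catenin were lower in 9 of 18 cases, against 24.9% of all genes, and none was higher by 2-fold. *Axin2*, the usual reporter of the pathway, had 36.0, 31.3, 42.6, 40.5 and 39.9 CPM in the controls and 12.2, 10.1, 9.61 and 11.4 CPM in the *Supt6*-KO mice. The groups were separate and even within themselves, with a log2 fold change of -1.81 (SE 0.13, adjusted p = 1e-06 by edgeR). *Lef1*, which encodes a transcription factor of the pathway, fell from 3.91 ± 2.24 to 0.341 ± 0.144 CPM (log2 fold change -3.51), and *Nkd2* and *Nkd1*, feedback inhibitors inside the cell, had log2 fold changes of -2.99 and -1.97. *Cd44* had 138 ± 8.54 and 238 ± 33.0 CPM (log2 fold change 0.78 with TMM and 0.11 with library totals), and *Sp5*, *Twist1*, *Wisp1* and *Ccnd1* did not pass with TMM. With library totals they passed the p threshold, with log2 fold changes of -0.79, -1.07, -1.22 and -1.27 (adjusted p = 0.021, 0.00078, 0.0087 and 0.022 by edgeR). *Ccnd1* had 39.0, 31.1, 32.5 and 120.3 CPM in the *Supt6*-KO mice and 78.5 to 102.4 CPM in the controls, so *Supt6*-KO 4 stood apart. Over all these lists 71 distinct genes were tested outside the antagonists, of which 36 were lower and 2 higher by at least 2-fold, against 24.9% and 20.9% of all genes tested. The number lower was 54 with library totals and 27 with the length trend removed. The background moved as well: of all 16426 genes tested, 4088 were lower with TMM, 6802 with library totals and 3473 with the length trend removed. The share lower was nearest to that of all genes in the Wnt ligand list, at 33.3%.

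**Figure D4:**
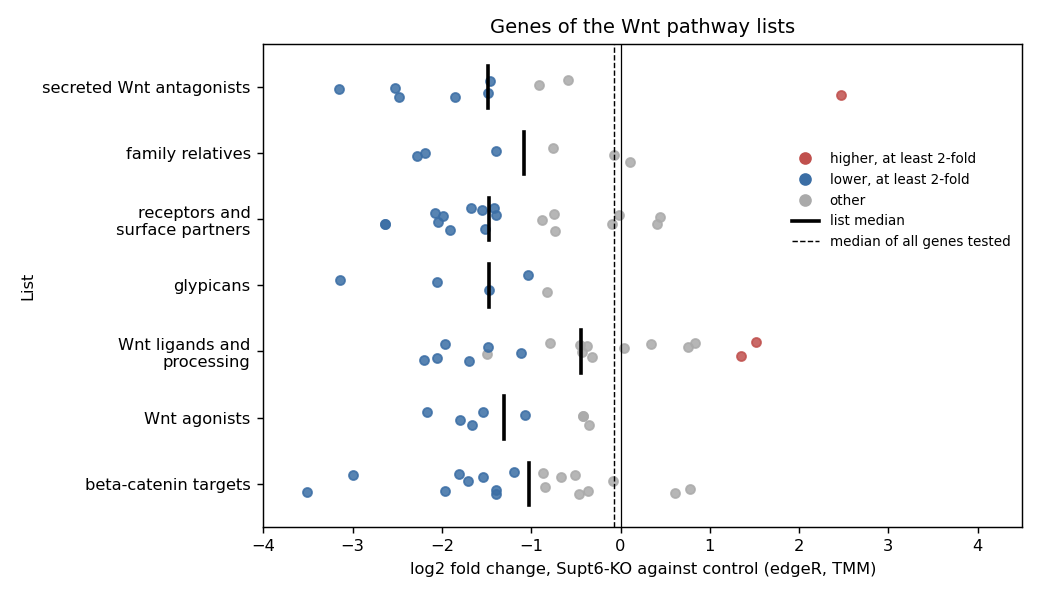
Log2 fold change of Supt6-KO against control (edgeR with TMM) for each tested gene of 7 Wnt pathway lists. Colored points passed an adjusted p under 0.05 and a 2-fold change, black bars are list medians (-1.48 for the antagonists, -0.44 for the Wnt ligands and processing genes), and the dashed line is the median of all genes, -0.07. Vertical position within a list is arbitrary.

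Markers of several cell types that can make antagonists changed between the groups as well. The counts of lower and higher markers below use the 2-fold rule, by which 24.9% of all genes were lower and 20.9% higher, and the sums are given without a test. The sums of 10 dermal fibroblast markers were 6033 ± 3030 CPM in the controls and 3009 ± 798 CPM in the *Supt6*-KO mice, with 4 of 10 lower (*Pdgfrb*, *Col1a1*, *Col1a2* and *Fn1*). Their most abundant gene, *Col3a1*, did not pass with TMM (2112 ± 941 and 1710 ± 604 CPM, log2 fold change -0.31, adjusted p = 0.43 by edgeR), nor did *Lum* and *Dpt*. With library totals *Col3a1* was lower by the 2-fold rule (log2 fold change -1.06, adjusted p = 0.011 by edgeR). *Lum* (-0.67, adjusted p = 0.021 by edgeR) and *Dpt* (-0.92, adjusted p = 0.00022 by edgeR) then passed the p threshold. *Fbln1* had a log2 fold change of 0.62 with TMM and -0.05 with library totals. Cartilage markers summed to 902 to 1444 CPM in the controls (mean 1106) and to 587, 563, 450 and 402 CPM in the *Supt6*-KO mice, with 8 of 9 lower. The most abundant, *Cytl1*, was at 451 and 406 CPM without a call, whereas *Acan* fell to 13.2 CPM and *Col2a1* to 5.01 CPM. Hair follicle stem cell and outer root sheath markers were at 18.8% of the control sum (2531 ± 278 and 475 ± 104 CPM, 7 of 8 lower), and their most abundant gene, *Krt15*, fell (log2 fold change -2.65). Dermal papilla markers were at 12.6% (53.7 ± 19.2 and 6.77 ± 0.901 CPM, 3 of 5 lower), and *Corin*, the most abundant, fell (log2 fold change -3.28). These are cell groups in which several antagonists are known to be made.

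Other sums were lower too. Endothelial markers were at 46.9% of the control sum (4 of 5 lower, *Pecam1* the most abundant), pericyte and smooth muscle markers at 45.1% (3 of 5, *Des*), adipocyte markers at 38.5% (4 of 5, *Adipoq*) and skeletal muscle markers at 25.9% (4 of 5, *Acta1*), and each of these named genes fell. Basal keratinocyte markers were at 86.1% with wide spread (9828 ± 436 and 8464 ± 3762 CPM, 3 of 6 lower). Their most abundant gene, *Krt14*, had 3379 ± 304 and 5355 ± 2915 CPM and did not pass (log2 fold change 0.66, adjusted p = 0.063 by edgeR). Suprabasal keratinocyte markers were at 204.8% of the control sum (16528 ± 952 and 33855 ± 2678 CPM). Of these 6 genes, *Krt1*, *Krt6a*, *Krt16* and *Ivl* rose, with log2 fold changes of 3.65, 4.70, 7.23 and 1.99, and *Lor* fell (-1.23). *Supt6*-KO 4 had 7577.6 CPM of *Krt6a* and 7999.8 CPM of *Krt16*. The other *Supt6*-KO mice had 615.5 to 1350.0 and 1443.3 to 2519.1 CPM, so this mouse raised both means most. The most abundant gene, *Krt10*, did not pass with TMM (14343 ± 730 and 16352 ± 5762 CPM, log2 fold change 0.19, adjusted p = 0.56 by edgeR). With library totals it was lower, by less than 2-fold (-0.55, adjusted p = 0.036 by edgeR). Leukocyte markers were at 550.5% (128.0 ± 24.1 and 704.7 ± 208.8 CPM, 4 of 5 higher), with *Lyz2* the most abundant (log2 fold change 2.79). With library totals the suprabasal and leukocyte sums were at 126.1% and 330.9% and the basal sum at 55.6%. The sums of fibroblast, cartilage, hair follicle and dermal papilla markers were then at 29.7, 27.5, 11.4 and 7.61% of the control sum. Those of endothelial, pericyte and smooth muscle, adipocyte and skeletal muscle markers were at 28.6, 27.4, 23.7 and 15.7%. Among the *Supt6*-KO mice, number 4 had the lowest leukocyte sum (478 CPM) and the lowest *Sostdc1*; its suprabasal sum was the lowest with TMM and the second highest with library totals. No marker of any list was at 0 in all mice. The part of these marker changes in the values of the antagonists was not tested.

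**Figure D5:**
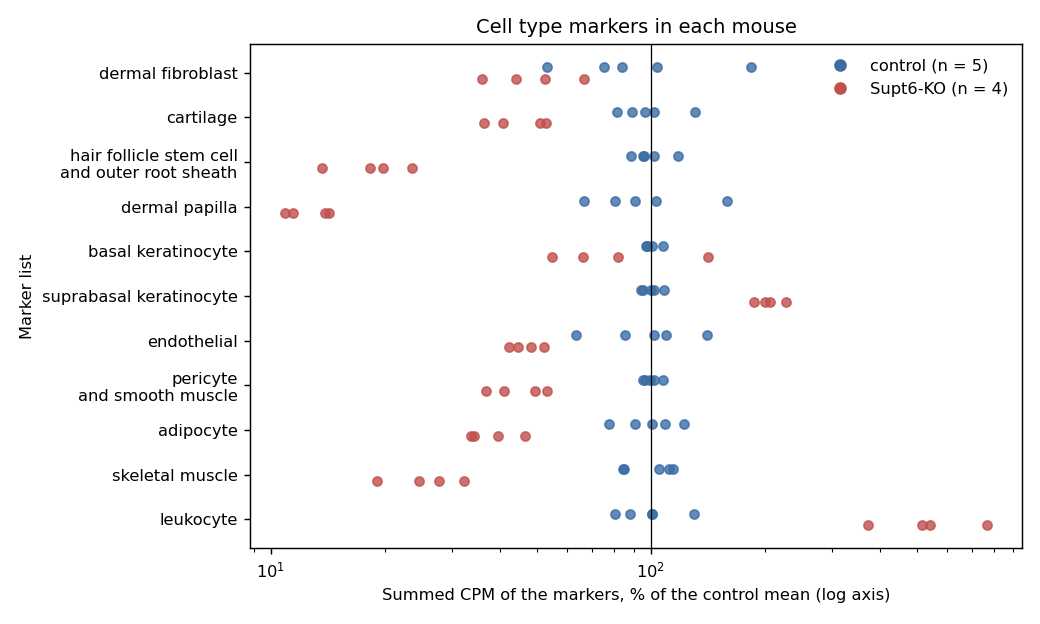
Summed CPM (with TMM factors) of each cell type marker list in each mouse, as percent of the mean of the 5 controls on a log axis. Points are mice. Hair follicle and dermal papilla markers lie lowest in the Supt6-KO mice (means of 18.8 and 12.6%), while suprabasal and leukocyte markers lie above all controls (means of 204.8 and 550.5% with TMM, 126.1 and 330.9% with library totals).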

How the data were processed

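Skin RNA of 5 control and 4 Supt6-KO mice was sequenced as mRNA libraries. The authors deposited estimated counts per gene from RSEM 1.3.1 after alignment to mm10 with Bowtie2 2.3.4.3, per the submitters' processing notes, without normalization between mice; the annotation release is not given in the sources used here. TPM values that the authors deposited beside them, for 6 mice, were used only to compare levels between genes.

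Of 17943 gene identifiers, 17917 matched a RefSeq gene of GRCm38. About 9.0% of the estimated counts were not whole, and all were rounded. A gene needed at least 10 counts in total to be tested, and 16426 did. Totals of 29627341 to 30967107 counts per mouse make 3 counts the floor of a library, for counting error only. The groups were compared with the quasi-likelihood test of edgeR 4.0.16 (R 4.3.3) with TMM factors and no covariate, and p-values were adjusted over all genes tested by the Benjamini-Hochberg method. A gene was called at an adjusted p under 0.05 and a change of at least 2-fold. The standard error is the absolute log2 fold change divided by the square root of the F statistic. Single genes were also compared by an exact permutation test of log2(CPM + 0.1). Nothing states that the mice were paired. The p-values of edgeR set the difference between the groups against the spread between these mice, estimated with information shared between genes.

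Transcript lengths and coordinates of the antagonists are of GENCODE M21 (GRCm38). CPM per kb divides by the length of 1 full-length coding transcript. Promoter windows are from RefSeq.

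Named are *Supt6*, all antagonists, their direct partners, and of each pathway list up to 4 called genes per direction with the largest change and at least 1 CPM in the higher group; of marker lists, the most abundant gene and genes at 0. Further genes named to complete a small count or a list, and markers other than the most abundant, were chosen after their values were seen. The antagonists and all gene lists were chosen with earlier results of these data known.

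Alternatives were DESeq2 1.42.0, other scalings and filters, a replicate block, a length correction and each mouse left out. Scripts were tested on simulated data. Python 3.11.15 was used with scipy 1.17.1 and pandas 2.3.3.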

Additional observations from a re-analysis of the deposited data

Results flagged for a closer look

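Among 46 groups of values examined for a mouse far from the rest of its group, 3 held one, and about 2.3 would arise by chance. Control 5 had 26.4 CPM of *Sfrp2*, where the median of the controls was 11.1 CPM. The same mouse had 674 CPM of *Wif1* (control median 470 CPM). *Supt6*-KO 4 had 0.359 CPM of *Notum* (group median 0.866 CPM), which rests on 10 counts.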

How the results depend on the processing

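The log2 fold changes of *Supt6* and the tested antagonists and the counts of antagonists, pathway genes and all genes were recomputed under 17 alternatives (16 for *Sfrp4*), 9 of which left out 1 mouse. Single pathway genes, markers and sums were recomputed with library totals only. *Sostdc1* was the only antagonist called higher under all of them, and 5 to 8 were called lower (6 with TMM; 8 with library totals, 5 with at least 10 counts in every mouse, where *Sfrp4* was not tested). *Supt6*, *Dkk2*, *Dkk3*, *Sfrp4*, *Frzb*, *Wif1*, *Sostdc1* and *Notum* kept their direction and an adjusted p under 0.05 wherever they were tested, but *Supt6* fell under 2-fold with the length trend (-0.78, against -1.57). *Sfrp1* lost its p threshold in 1 alternative, the length trend (-0.14, adjusted p = 0.31 by edgeR). *Sfrp2* lost it with a replicate block (-0.52, adjusted p = 0.089) and without control 5, *Supt6*-KO 1 or *Supt6*-KO 2, with log2 fold changes of -1.06 to -0.51 over the 9 fits that left out 1 mouse. Of the pathway genes outside the antagonists, 2 were called higher with TMM, 0 with library totals, 1 with upper-quartile factors, 1 with the 10-count filter in each mouse, 1 with the replicate block, 5 with the length trend, and 1 to 2 with each mouse left out. The number called lower was 36 with TMM, 54 with library totals and 27 with the length trend. The causes were not tested. Library totals gave 1470 higher and 6802 lower among all genes, and the length trend gave 2914 higher and 3473 lower. Titles number the mice alike in both groups. Deviations of same-numbered mice correlated by -0.011, 0.243, 0.222 and 0.059, and those of differently numbered mice by -0.227 to 0.255. So few values cannot decide whether the numbers mark pairs. The numbers were not taken as pairs because nothing states a pairing. With the replicate block 6 antagonists were lower and 1 higher, and no antagonist except *Sfrp2* lost its p threshold. Control 5 has no same-numbered *Supt6*-KO mouse, so it adds nothing to the group difference in the block fit. Depth limits *Sfrp4*, *Notum* and *Dkk1*, with 10, 23 and 2 counts at most in a *Supt6*-KO mouse.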
